A study of Mus musculus with 6 samples.

Results

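The genes described here carry out or control the copying of DNA in S phase, without the Mcm helicase itself. A list of 48 genes was taken by name, and 47 of them were measured by at least 1 probe set that maps to exactly 1 gene symbol, among 18194 genes in all. The remaining 1, Chaf1a, had no such probe set in the annotation used here and was left out. Where a gene had several probe sets, the one with the highest mean over all 6 arrays stood for it. RNA came from whole livers of CYP2D6-humanized mice, which are CYP2D6 transgenic animals on a C57BL/6 background, and every group carries the transgene. The groups were livers taken at pre-pregnancy, at day 21 of pregnancy and at day 7 postpartum, with 2 biological replicates and 1 array per replicate. The sources used here do not give the age of the animals, the promoter that drives the transgene or the hour of collection.

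A cell prepares to copy its genome in G1, when the origin recognition complex, Cdc6 and Cdt1 load the Mcm helicase onto origins. The kinase Cdc7 with its partner Dbf4 then helps Cdc45 and the GINS complex to switch the helicase on, and polymerases primed by primase copy each strand behind the sliding clamp PCNA. E2F transcription factors drive many of these genes at the G1/S boundary, through sites in their promoters. Most hepatocytes of the adult liver are outside the cell cycle, and rodent liver is known to grow in pregnancy.

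The median log2 level of an array ran from 5.09 to 5.15, and the arrays of a stage correlated across genes at 0.994 to 0.997. The 8 hepatocyte markers, among them Alb and Ttr, stood above background at every stage. Levels below 5.40 on the log2 scale are called near background here, which is the 95th percentile of the levels of 74 olfactory, vomeronasal and taste receptor genes on the same arrays. Where the mean of a stage lay under that line, no fold is given. Of the 47 members, 3 (Cdc7, Exo1 and Tyms) were near background at all stages. Every comparison used limma over all 6 arrays with Benjamini-Hochberg adjustment over all genes and a threshold of 0.05, and ± marks the standard error (SE) of a log2 difference. With 2 arrays per stage no exact permutation test could reach that threshold. The 3 comparisons share arrays and so are not independent of each other.

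Replication genes were lower in late pregnancy than before it, and lay between those levels 7 days after birth. At day 21 of pregnancy, 35 of the 47 members fell and 1 rose against the pre-pregnancy liver, where 8.25% of all genes fell and 5.46% rose (13.7% called in either direction). The median difference of the members was -1.015 on the log2 scale, against 0.045 over all genes, and 25 members were lower by 1 or more on that scale against 1.75% of all genes, and 0 were higher by as much, against 0.835%. In 40 members both pregnant arrays lay below both pre-pregnancy arrays, as did 26% of all genes, and in 4 they lay above, as did 33.6%. Since these are bulk livers, fewer cells in S phase and less RNA per such cell cannot be told apart.

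After birth, 13 members rose and 0 fell between day 21 of pregnancy and day 7 postpartum, where 2.41% of all genes rose and 0.879% fell (3.29% called in either direction). The median difference was 0.49 on the log2 scale, against -0.01 over all genes. At an unadjusted p under 0.05 in limma 32 members were higher and 1, Cdc45, was lower, whose second probe set differed by 0.245 the other way. The share of all genes past that unadjusted threshold was not counted, here or below. By 1 or more on the log2 scale 8 members were higher and 0 lower, against 1.06% and 0.39% of all genes. Postpartum arrays lay above both pregnant ones in 36 members and below in 3, against 25.1% and 25% of all genes. Against the pre-pregnancy liver, 23 members were still lower at day 7 postpartum and 1, E2f2, was higher, where 3.75% of all genes fell and 3.91% rose (7.66% in either direction). The median difference there was -0.615 against 0.025 over all genes. By 1 or more on the log2 scale 12 members were lower and 1 higher, against 0.775% and 0.973% of all genes, and postpartum arrays lay below both pre-pregnancy ones in 36 members and above in 4, against 22.6% and 30% of all genes. Set by array, the members' median level was 7.68 and 7.24 before pregnancy, 6.30 and 6.07 in pregnancy, then 6.74 and 6.78 postpartum, while the median over all genes stayed between 6.31 and 6.40.

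**Figure D1:**
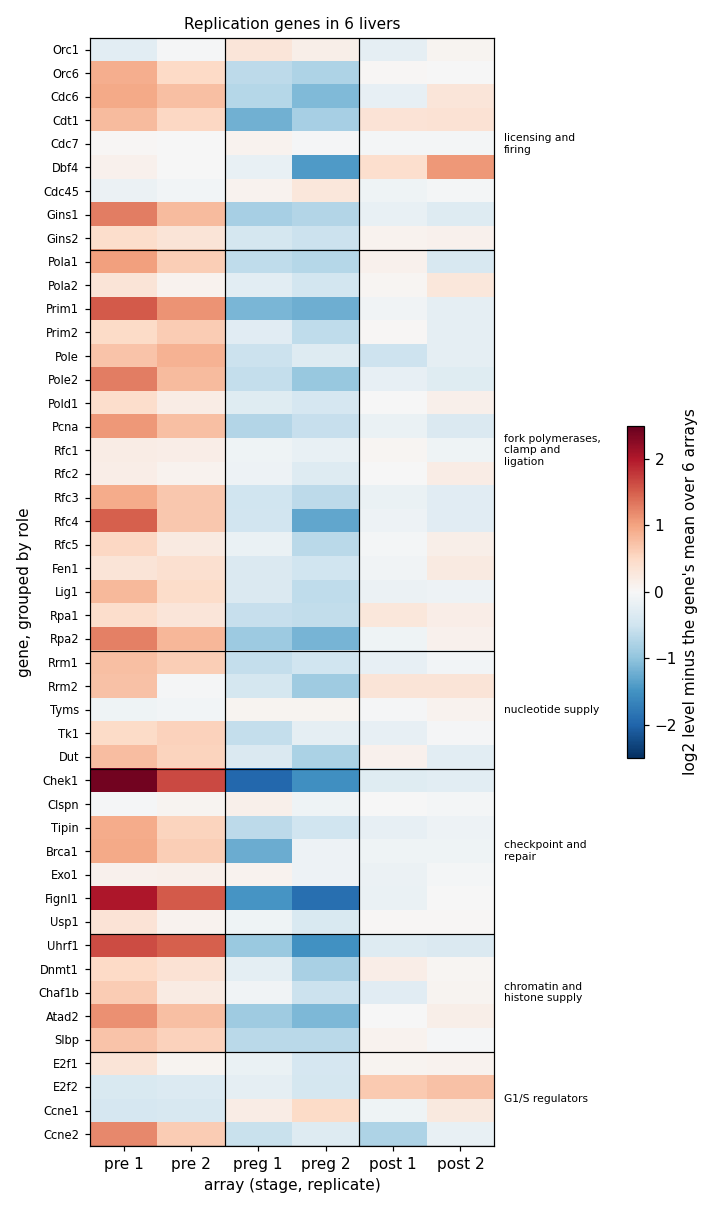
Level of each of the 47 replication genes on each of the 6 arrays, as the log2 level minus that gene's mean over the 6 arrays (red high, blue low), with genes in rows grouped by role and arrays in columns by stage (pre, pre-pregnancy; preg, day 21 of pregnancy; post, day 7 postpartum). Most rows are red in both pre-pregnancy columns and blue in both pregnant ones, with E2f2 and Ccne1 among the exceptions.

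The 2 pre-pregnancy arrays were not alike for these genes. Replicate 1 was the higher in 36 of 47 members (76.6%), by a median of 0.23 on the log2 scale, while over all genes it was higher in 51% by a median of 0.01. The pregnant replicate 1 was higher in 34 members (72.3%) by a median of 0.16, against 53.2% of all genes and a median of 0.02. Postpartum the order was the other way, with replicate 1 higher in 16 members and replicate 2 in 28. The median difference there was -0.02, against -0.01 over all genes. Without pre-pregnancy replicate 1, fewer members were called in pregnancy against pre-pregnancy, all of them lower, and fewer of all genes were called too. The median difference of the members was then -0.985, against 0.04 over all genes. The other arrays left out in turn gave member medians of -1.19 to -1.01.

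Promoter windows are shown here because many of these genes moved together and E2F sites are a textbook feature of their promoters. RefSeq windows on build GRCm38.p6, from 250 bases before to 50 after each start, were found for 37 of the 47 members (45 windows, since some genes have several starts), and not for Atad2, Ccne2, Exo1, Gins1, Gins2, Pole, Prim2, Rfc2, Tipin and Usp1. At least 1 of 3 E2F motifs (TTTCCCGC, TTTGGCGC or TTTCGCGC, either strand) stood in 26.7% of the members' windows, against 1.84% of all 32851 windows and 2.41% of those of protein-coding genes. The NF-Y box CCAAT stood in 46.7% against 37.4% of all windows, and a CHR motif (TTTGAA or TTCGAA), which is better known from mitotic genes, in 20% against 19.2%. A window with several motifs of a kind, overlapping or not, was counted once, and a match is a run of letters, not a shown binding site. Of the 34 windows of members that fell in pregnancy 9 held an E2F motif, and of the 11 of other members 3 did. The bases just before the start follow, 5′ to 3′ on the gene's strand, with E2F motifs and CCAAT boxes (or their reverse complements) in capitals. Rfc3, Pola1 and Cdc6 fell in pregnancy and hold an E2F motif, Orc1 holds one and did not pass the test, and Prim1 and Chek1 fell and hold no E2F motif in their windows.
Rfc3, chr5:151651209-151651308, minus strand: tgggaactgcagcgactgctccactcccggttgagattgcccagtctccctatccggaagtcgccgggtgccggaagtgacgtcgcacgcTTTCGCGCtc
Pola1, chrX:93632156-93632315, minus strand: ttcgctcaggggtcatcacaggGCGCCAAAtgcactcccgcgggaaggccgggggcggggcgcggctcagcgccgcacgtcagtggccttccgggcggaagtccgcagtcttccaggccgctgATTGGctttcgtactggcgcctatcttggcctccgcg
Cdc6, chr11:98907991-98908150, plus strand: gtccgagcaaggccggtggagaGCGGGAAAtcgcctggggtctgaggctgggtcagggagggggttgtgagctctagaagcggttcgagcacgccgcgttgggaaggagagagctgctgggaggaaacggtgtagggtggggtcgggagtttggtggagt
Orc1, chr4:108579314-108579453, plus strand: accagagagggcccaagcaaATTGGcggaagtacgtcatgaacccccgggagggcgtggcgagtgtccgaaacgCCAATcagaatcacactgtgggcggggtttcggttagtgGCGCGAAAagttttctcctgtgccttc
Prim1, chr10:128015115-128015214, plus strand: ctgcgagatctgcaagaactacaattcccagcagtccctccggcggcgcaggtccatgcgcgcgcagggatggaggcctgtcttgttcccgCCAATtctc
Chek1, chr9:36726659-36726758, minus strand: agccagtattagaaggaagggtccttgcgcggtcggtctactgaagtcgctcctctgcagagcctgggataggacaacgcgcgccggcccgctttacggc

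Among the 9 licensing and firing genes, 5 fell in pregnancy and 0 rose. Gins1, a subunit of the GINS complex, stood at 8.57 and 8.08 before pregnancy, 6.45 and 6.56 in pregnancy, then 7.11 and 6.96 postpartum. It fell 3.53-fold in pregnancy (log2 change -1.82 ± 0.164, adjusted p = 0.00128) and postpartum was still 2.45-fold below the pre-pregnancy level (-1.29 ± 0.164, adjusted p = 0.00726). Its 3 stages did not overlap. Cdt1, the loading factor for the Mcm helicase, read 9.13 and 8.85, then 7.14 and 7.5, then 8.68 and 8.70 in the same order of stages. Its fall was 3.18-fold (-1.67 ± 0.150, adjusted p = 0.00128), its rise after birth 2.58-fold (1.37 ± 0.150, adjusted p = 0.00603), and the postpartum level was -0.30 ± 0.150 from the pre-pregnancy one (adjusted p = 0.290). Both Cdt1 calls held with each array left out, and its other probe set above background moved the same way, at -1.975 and 1.525.

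Orc6, a subunit of the origin recognition complex, was at 7.20 and 6.79 before pregnancy, at 5.64 and 5.52 in pregnancy and at 6.33 and 6.29 postpartum. It fell 2.67-fold (-1.415 ± 0.145, adjusted p = 0.00207) and rose after birth by 0.73 ± 0.145 (adjusted p = 0.0417). Gins2, another GINS subunit, went from 7.04 and 6.93 to 6.17 and 6.07 and then to 6.69 and 6.71, a fall of 1.82-fold (adjusted p = 0.00314) and a rise of 0.58 ± 0.103 (adjusted p = 0.0298). Pregnant and postpartum arrays of both genes did not overlap. Cdc6, the loader ATPase whose promoter is printed above, fell from 5.5 and 5.30 to 3.84 and 3.45 (adjusted p = 0.00265). Its postpartum levels of 4.34 and 4.85 were also near background, so no fold is given. The falls of these 5 genes in pregnancy held with each array left out, but the rises after birth were less firm. Against the pre-pregnancy level Gins1, Orc6 (-0.685 ± 0.145, adjusted p = 0.0312) and Cdc6 (0.0483) were called lower postpartum, and each of these calls was lost with pre-pregnancy replicate 1 left out (0.0553 to 0.290) and without postpartum replicate 2 (0.0509 to 0.161). Those of Orc6 and Cdc6 were also lost without postpartum replicate 1 (0.103 and 0.185), and that of Cdc6 without pre-pregnancy replicate 2 (0.136). The rise of Gins2 after birth was lost without any 1 of the 6 arrays (adjusted p = 0.0515 to 0.150), that of Cdc6 in 5 of 6 such fits (up to 0.194) and that of Orc6 without either pregnant or postpartum array (0.0722 to 0.173).

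The other licensing and firing genes did not pass the test in any comparison. Dbf4, the activator of Cdc7, read 6.59 and 6.48 before pregnancy, 6.30 and 5.07 in pregnancy, then 6.91 and 7.57 postpartum. Its pregnant arrays lay 1.23 apart, and the difference after birth was 1.555 ± 0.367 (adjusted p = 0.0650). Without pregnancy replicate 1 it was called lower in pregnancy (adjusted p = 0.0192) and higher after birth (0.0127). Orc1, whose promoter holds an E2F motif, was at 6.68 and 6.90, then 7.24 and 7.08, then 6.72 and 7.01, a difference of 0.37 ± 0.139 in pregnancy (adjusted p = 0.117). Cdc7 stayed near background, between 5.30 and 5.44. Cdc45, a helicase cofactor, depended on the probe set. The brightest gave 6.15 and 6.22 before pregnancy and 6.39 and 6.58 in pregnancy (0.30 ± 0.110, adjusted p = 0.109). The other gave 6.80 and 6.57 before pregnancy, 5.64 and 5.56 in pregnancy, then 5.81 and 5.88 postpartum, and it was called lower in pregnancy (log2 change -1.085, adjusted p over all probe sets 0.00223).

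Of the 17 genes for the polymerases, primase, clamp and strand joining, 15 fell in pregnancy, and Rfc1 and Rfc2 were lower without passing the test. Prim1, the catalytic subunit of primase, showed the largest fall of the group. Its arrays read 8.69 and 8.27 before pregnancy, 6.02 and 5.94 in pregnancy, then 7.07 and 6.94 postpartum, with no overlap between stages. It fell 5.66-fold (-2.5 ± 0.148, adjusted p = 0.000264), rose 2.03-fold after birth (1.025 ± 0.148, adjusted p = 0.0157) and stayed 2.78-fold below the pre-pregnancy level (-1.475 ± 0.148, adjusted p = 0.00347). A second probe set of Prim1 gave -2.22, 0.955 and -1.265. Its partner Prim2 fell by less, from 6.49 and 6.65 to 5.73 and 5.38 (-1.015 ± 0.150, adjusted p = 0.00700), with 6.05 and 5.80 postpartum.

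Polymerase alpha, which extends the primers, was represented by Pola1 and Pola2. Pola1, the catalytic subunit, fell from 7.79 and 7.38 to 6.12 and 6.04 (2.84-fold, adjusted p = 0.00404) and read 6.87 and 6.36 postpartum, where it was still 1.96-fold lower (adjusted p = 0.0258). Pola2 read 7.29 and 7.07, then 6.71 and 6.51, then 7.02 and 7.25. It fell by 0.57 ± 0.135 (adjusted p = 0.0314), and postpartum it was -0.045 ± 0.135 from the pre-pregnancy level (adjusted p = 0.904). Of the leading-strand polymerase epsilon, Pole read 6.66 and 6.82, then 5.42 and 5.63, then 5.43 and 5.73. Its fall was 2.32-fold (adjusted p = 0.00287), and the difference after birth was 0.055 ± 0.139 (adjusted p = 0.863), so pregnant and postpartum arrays overlapped. Its subunit Pole2 fell 3.48-fold, from 7.65 and 7.16 to 5.78 and 5.43 (adjusted p = 0.00200), with 6.17 and 6.07 postpartum. Pold1, of the lagging-strand polymerase delta, fell 1.60-fold, from 6.67 and 6.41 to 5.92 and 5.80 (adjusted p = 0.0140), with 6.21 and 6.35 postpartum.

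Pcna, the sliding clamp, was at 11.60 and 11.27 before pregnancy, 9.77 and 9.93 in pregnancy, then 10.34 and 10.16 postpartum. Its fall was 3-fold (-1.585 ± 0.141, adjusted p = 0.00128), the difference after birth 0.40 ± 0.141 (adjusted p = 0.165), and the postpartum level 2.27-fold below that before pregnancy (adjusted p = 0.00597). Postpartum arrays lay between those of the other stages without overlap. The clamp is loaded by replication factor C, whose small subunits differed in size of change. Rfc4 fell 3.92-fold, from 8.59 and 7.76 to 6.61 and 5.80 (-1.97 ± 0.311, adjusted p = 0.00862), with a wide spread at both stages, and Rfc3 2.59-fold, from 7.84 and 7.58 to 6.42 and 6.25 (adjusted p = 0.00144). Rfc5 fell by 0.79 ± 0.181, from 8.39 and 8.11 to 7.71 and 7.21 (adjusted p = 0.0285), with 7.82 and 8.02 postpartum. Rfc1 and Rfc2 stood at -0.325 ± 0.106 and -0.36 ± 0.120 (adjusted p = 0.0824 and 0.0873).

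The single-strand binding protein RPA and the enzymes that finish Okazaki fragments were lower too. Rpa2 read 8.17 and 7.73, then 6.00 and 5.74, then 6.80 and 7.01, which is a fall of 4.23-fold (adjusted p = 0.000905) and a rise of 2.05-fold after birth (1.035 ± 0.169, adjusted p = 0.0229). Rpa1 read 10.36 and 10.24, then 9.36 and 9.31, then 10.21 and 10.09. It fell 1.95-fold (adjusted p = 0.00255) and rose 1.76-fold (adjusted p = 0.0113), and its postpartum level was -0.15 ± 0.106 from the pre-pregnancy one (adjusted p = 0.469). Among these 17 genes Prim1, Rpa1 and Rpa2 were the 3 called higher after birth on the brightest probe sets. A second Rpa2 probe set differed by 0.555 there (adjusted p over all probe sets 0.162). Lig1, the ligase of the lagging strand, fell from 7.68 and 7.32 to 6.49 and 6.22 (2.21-fold, adjusted p = 0.00426), with 6.72 and 6.73 postpartum. Fen1, the flap endonuclease, fell by 0.80 ± 0.131, from 9.45 and 9.52 to 8.75 and 8.62, on its brightest probe set (adjusted p = 0.00971), with 9.03 and 9.35 postpartum. A second Fen1 probe set read 7.57 and 7.26, then 5.43 and 5.07, then 6.30 and 6.64 (adjusted p over all probe sets 0.000773 for the fall), with the pregnant mean near background. That probe set was called higher after birth (0.0159) and lower postpartum than before pregnancy (-0.945, 0.0190).

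Leaving out single arrays changed the calls of this group as follows. The falls of Prim1, Pole, Pole2, Pcna, Rfc3, Lig1, Rpa1 and Rpa2 in pregnancy held with each array left out. Without pre-pregnancy replicate 1 those of Pola1, Pola2, Prim2, Pold1, Rfc4, Rfc5 and Fen1 were lost (adjusted p = 0.0525 to 0.199), without pre-pregnancy replicate 2 those of Pola2, Prim2, Rfc5 and Fen1 (0.0540 to 0.0746), and without pregnancy replicate 2 those of Pola2, Pold1 and Rfc5 (0.0620 to 0.125). Of the rises after birth, those of Prim1 and Rpa2 were lost without pregnancy replicate 2 or either postpartum array, and that of Rpa1 without postpartum replicate 1 (adjusted p = 0.0618 to 0.132). Of the 10 genes still lower postpartum than before pregnancy, only Prim1 was called with each of the 6 arrays left out. Without pre-pregnancy replicate 1 the other 9 were not called (adjusted p = 0.0619 to 0.289).

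**Figure D2:**
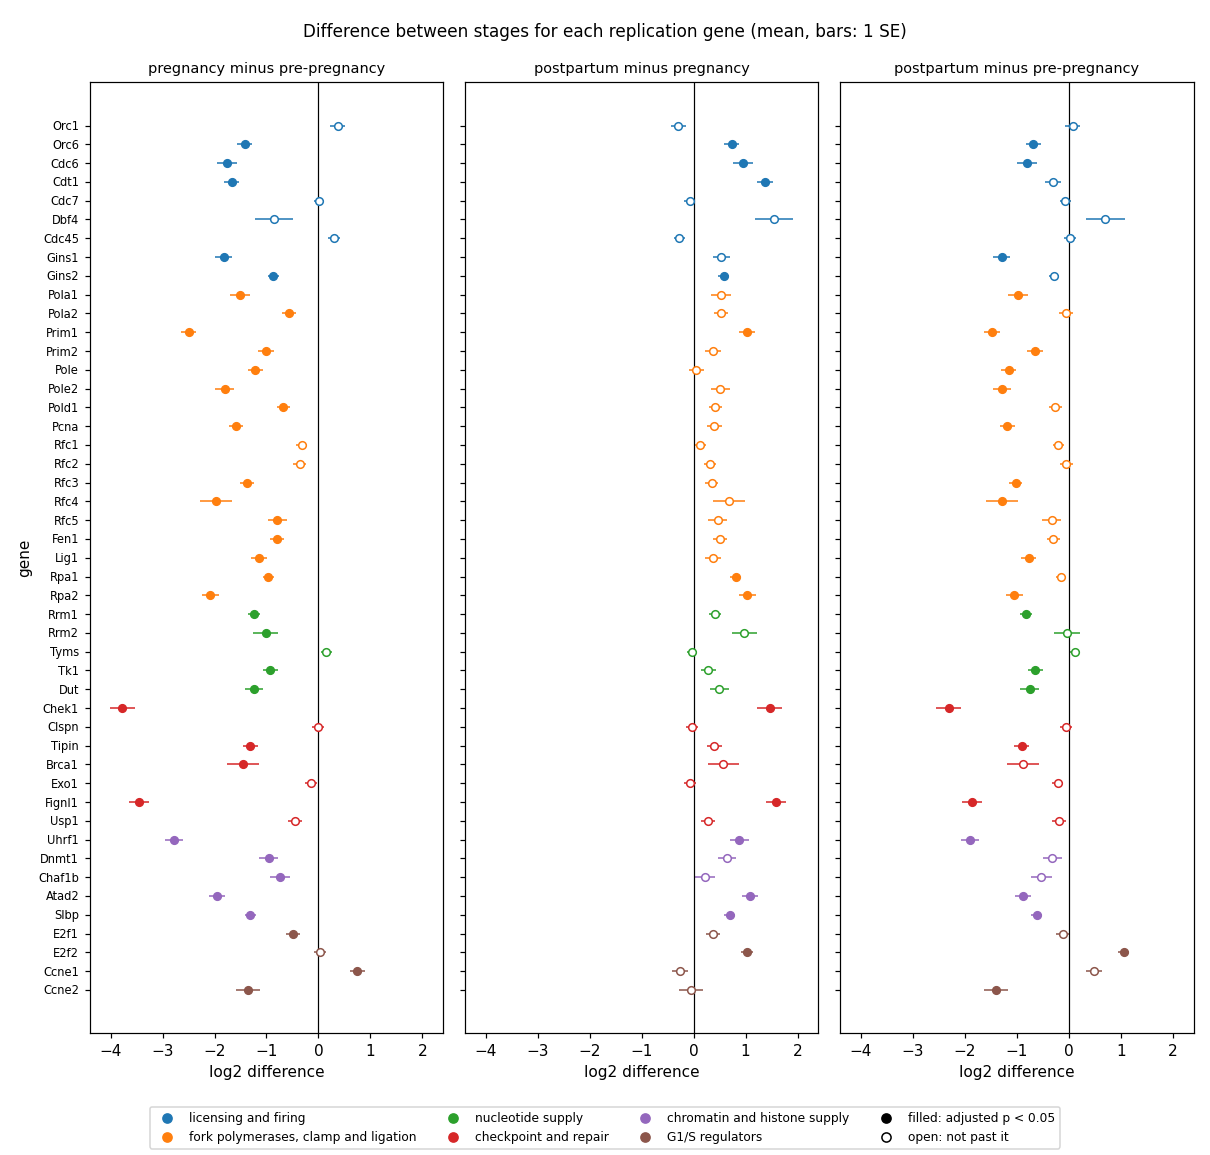
Log2 difference of each replication gene between stages (points) with 1 SE (bars), in 3 panels for pregnancy minus pre-pregnancy, postpartum minus pregnancy and postpartum minus pre-pregnancy, with filled points past an adjusted p of 0.05 in limma and colours for roles. In the first panel 35 filled points lie left of 0 and 1 right of it, in the second 13 lie right of 0, and in the third 23 lie left and 1 right of 0, while for genes near background at a stage, such as Chek1, the plotted difference is not a measured size.

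Of the 5 genes that supply deoxynucleotides, 4 fell in pregnancy. Rrm1, the large subunit of ribonucleotide reductase, read 8.73 and 8.58 before pregnancy, 7.37 and 7.47 in pregnancy, then 7.76 and 7.90 postpartum. It fell 2.35-fold (-1.235 ± 0.112, adjusted p = 0.00130) and postpartum was 1.77-fold below its pre-pregnancy level (adjusted p = 0.00881). A second Rrm1 probe set fell from 7.62 and 6.74 to 5.22 and 5.16, which is near background (adjusted p over all probe sets 0.00316). Rrm2, the small subunit, read 8.57 and 7.82, then 7.41 and 6.96, then 8.16 and 8.16. Its fall of 1.01 ± 0.241 on the log2 scale (adjusted p = 0.0323) was -0.635 without pre-pregnancy replicate 1 (adjusted p = 0.167), and postpartum it was -0.035 ± 0.241 from the pre-pregnancy level (adjusted p = 0.961). The postpartum arrays of Rrm2 thus lay between its pre-pregnancy arrays, unlike those of Rrm1.

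Dut, which removes dUTP from the pool, fell from 8.63 and 8.40 to 7.49 and 7.06 (2.36-fold, adjusted p = 0.00685) and read 7.95 and 7.58 postpartum. Tk1, the thymidine salvage kinase, fell from 9.33 and 9.44 to 8.27 and 8.64 (1.91-fold, adjusted p = 0.00810), with 8.65 and 8.83 postpartum. Both were lower postpartum than before pregnancy (-0.75 ± 0.182 and -0.645 ± 0.144, adjusted p = 0.0483 and 0.0373). A second Dut probe set above background read 6.5 and 5.96 before pregnancy and 6.26 and 6.16 postpartum (-0.02, adjusted p over all probe sets 0.971), and with its probe sets averaged Dut stood at -0.385 (adjusted p = 0.178). The pregnant and pre-pregnancy arrays of each gene did not overlap on the brightest probe set. Tyms, thymidylate synthase, has 4 probe sets, all near background at every stage, so its level was not measurable here. With limma 0 of the 5 genes were called after birth, and 3 were higher at an unadjusted p under 0.05, where Rrm2 came nearest (0.975 ± 0.241, adjusted p = 0.0747; 0.0383 with the replicate number as a block). The fall of Rrm1 held with each array left out, while those of Dut, Rrm2 and Tk1 were lost with pre-pregnancy replicate 1 left out (adjusted p = 0.0678 to 0.167). That of Tk1 was also lost with pre-pregnancy replicate 2 left out (0.0589) and that of Rrm2 without pregnancy replicate 2 (0.138) or either postpartum array (0.0536). Postpartum against pre-pregnancy, all 3 calls of Rrm1, Dut and Tk1 were lost with pre-pregnancy replicate 1 left out (0.0986 to 0.295), and those of Dut and Tk1 without pre-pregnancy replicate 2 or either postpartum array (0.0642 to 0.267).

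Of the 7 checkpoint and repair genes 4 fell in pregnancy, 3 of them to near background. Chek1, the kinase that stalls the cycle when forks are blocked, read 8.01 and 7.24 before pregnancy and 3.63 and 4.07 in pregnancy (adjusted p = 0.000357), and 5.30 and 5.33 postpartum (adjusted p = 0.0249 against pregnancy and 0.00432 against pre-pregnancy). Fignl1, an ATPase of recombination repair, went from 7.54 and 7.04 to 4.04 and 3.63 (adjusted p = 0.000227) and then to 5.34 and 5.5 (0.00895 and 0.00388). For both genes the 3 stages did not overlap and the pregnant arrays were near background, so no fold is given for pregnancy. Chek1 was near background postpartum as well, so its rise after birth has no measured size. Against the pre-pregnancy level, postpartum Fignl1 was 3.66-fold lower. A second Chek1 probe set read 6.90 and 6.14 before pregnancy and 3.40 and 4.06 in pregnancy, the latter near background (adjusted p over all probe sets 0.00153). Postpartum it read 4.43 and 4.42, also near background, and was not called against pregnancy (0.214).

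Tipin, of the fork protection complex, was at 9.21 and 8.85, then 7.64 and 7.80, then 8.08 and 8.16. It fell 2.48-fold (adjusted p = 0.00241) and was 1.88-fold lower postpartum (adjusted p = 0.0122). Brca1, a repair scaffold, read 6.86 and 6.54 before pregnancy, 4.69 and 5.80 in pregnancy, then 5.82 and 5.82 postpartum (adjusted p = 0.0224 in pregnancy). Its pregnant arrays lay 1.11 apart, and its call was lost with either pre-pregnancy array left out (adjusted p = 0.169 and 0.0811). Its mean in pregnancy was near background, so no size is given. Usp1, a deubiquitinase of PCNA, was at -0.455 ± 0.137 (adjusted p = 0.0661), while 2 other probe sets of it fell (-0.885 and -1.01). Clspn, the adaptor of Chek1, lay between 5.39 and 5.63 on its brightest probe set, while a second one read 5.73 and 5.73 before pregnancy and 5.01 and 4.62 in pregnancy (adjusted p over all probe sets 0.00845). Exo1, a 5′ exonuclease, was near background on all 3 of its probe sets, one of which read 5.05 and 5.07 before pregnancy and 3.11 and 3.47 in pregnancy (adjusted p over all probe sets 0.000563). The falls of Chek1, Fignl1 and Tipin in pregnancy held with each array left out. After birth the rise of Chek1 was lost without pregnancy replicate 1 or either postpartum array (0.0716 to 0.124) and that of Fignl1 without postpartum replicate 2 (0.0558). The lower postpartum level of Tipin was not called without pre-pregnancy replicate 1 or either postpartum array (0.0592 to 0.102).

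All 5 measured genes of chromatin copying and histone supply fell in pregnancy. Uhrf1, which recruits the maintenance methyltransferase to new DNA, read 7.16 and 7.03 before pregnancy, 4.61 and 4.02 in pregnancy, then 5.22 and 5.17 postpartum. The last 2 stages were near background (adjusted p = 0.000357 for the fall and 0.00268 for postpartum against pre-pregnancy). Atad2, a chromatin ATPase with a bromodomain, read 7.84 and 7.45, then 5.80 and 5.57, then 6.68 and 6.85. It fell 3.89-fold (adjusted p = 0.000810) and rose 2.11-fold after birth (1.08 ± 0.155, adjusted p = 0.0155). Its postpartum arrays lay between those of the other stages.

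Slbp, which binds the stem-loop of histone messages, fell from 9.53 and 9.39 to 8.15 and 8.14 (2.49-fold, adjusted p = 0.000864) and rose to 8.90 and 8.79 (1.62-fold, adjusted p = 0.0174). Dnmt1, the maintenance methyltransferase itself, fell from 8.38 and 8.24 to 7.64 and 7.07 (-0.955 ± 0.180, adjusted p = 0.0151) and read 8.06 and 7.93 postpartum. Chaf1b, of chromatin assembly factor 1, fell by 0.74 ± 0.201, from 6.37 and 5.95 to 5.64 and 5.20 (adjusted p = 0.0482), with 5.46 and 5.80 postpartum. Pregnant and pre-pregnancy arrays did not overlap for any of the 5 genes. The falls of Uhrf1, Atad2 and Slbp held with each array left out, and those of Dnmt1 and Chaf1b were lost with either pre-pregnancy array left out (adjusted p = 0.0691 to 0.279), that of Chaf1b also without pregnancy replicate 2 (0.193) or either postpartum array (0.0583). The rises of Atad2 and Slbp after birth were lost without pregnancy replicate 2 or either postpartum array (0.0604 to 0.108). That of Uhrf1 (adjusted p = 0.0460), between stages near background, was lost in 5 of 6 such fits (0.0841 to 0.184). Postpartum against pre-pregnancy, Uhrf1, Atad2 and Slbp were not called without pre-pregnancy replicate 1 (0.0553 to 0.146), Atad2 and Slbp also not without either postpartum array (0.0556 to 0.115) and Slbp not without pre-pregnancy replicate 2 (0.0606).

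The 4 regulators of the G1/S boundary did not move as a group. Ccne1, a cyclin that drives entry into S phase with Cdk2, was the single member called higher in pregnancy, at 5.63 and 5.66 before, 6.25 and 6.54 in pregnancy, then 5.96 and 6.31 postpartum (1.68-fold, 0.75 ± 0.150, adjusted p = 0.0185). Its second probe set read 5.87 and 6.03 before pregnancy and 6.07 and 6.32 in pregnancy, a difference of 0.245 (adjusted p over all probe sets 0.327), so the size of the rise is not settled. The rise was also lost without either pre-pregnancy array or pregnancy replicate 2 (adjusted p = 0.0801 to 0.130). Ccne2, the second cyclin E, went the other way, from 6.58 and 6.02 to 4.83 and 5.07 (adjusted p = 0.0112), and stayed at 4.62 and 5.19 postpartum (adjusted p = 0.0152 against pre-pregnancy). Pregnant and postpartum arrays of Ccne2 overlapped near background. Its call in pregnancy was lost with pre-pregnancy replicate 1 left out (0.0964), and that postpartum without pre-pregnancy replicate 1 (0.135) or postpartum replicate 1 (0.0609).

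E2f2, an activating E2F, was the single member called higher after birth than before pregnancy. It read 5.11 and 5.15 before pregnancy and 5.27 and 5.05 in pregnancy, both near background, and 6.15 and 6.22 postpartum (adjusted p = 0.00603 against pregnancy and 0.00432 against pre-pregnancy). The postpartum arrays lay above all 4 others. A dim second probe set read 3.79 and 3.80 in pregnancy, then 4.81 and 4.48 postpartum, all near background, so it gives no size. The call against pregnancy held with each array left out, and the one against pre-pregnancy was lost with pre-pregnancy replicate 1 left out (adjusted p = 0.0609). E2f1, another activator, read 7.01 and 6.76, then 6.52 and 6.27, then 6.76 and 6.78. Its fall of 0.49 ± 0.131 (adjusted p = 0.0462) was called in 1 of 6 fits with an array left out (up to 0.255) and not after repeated quantile normalization (0.0578).

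**Figure D3:**
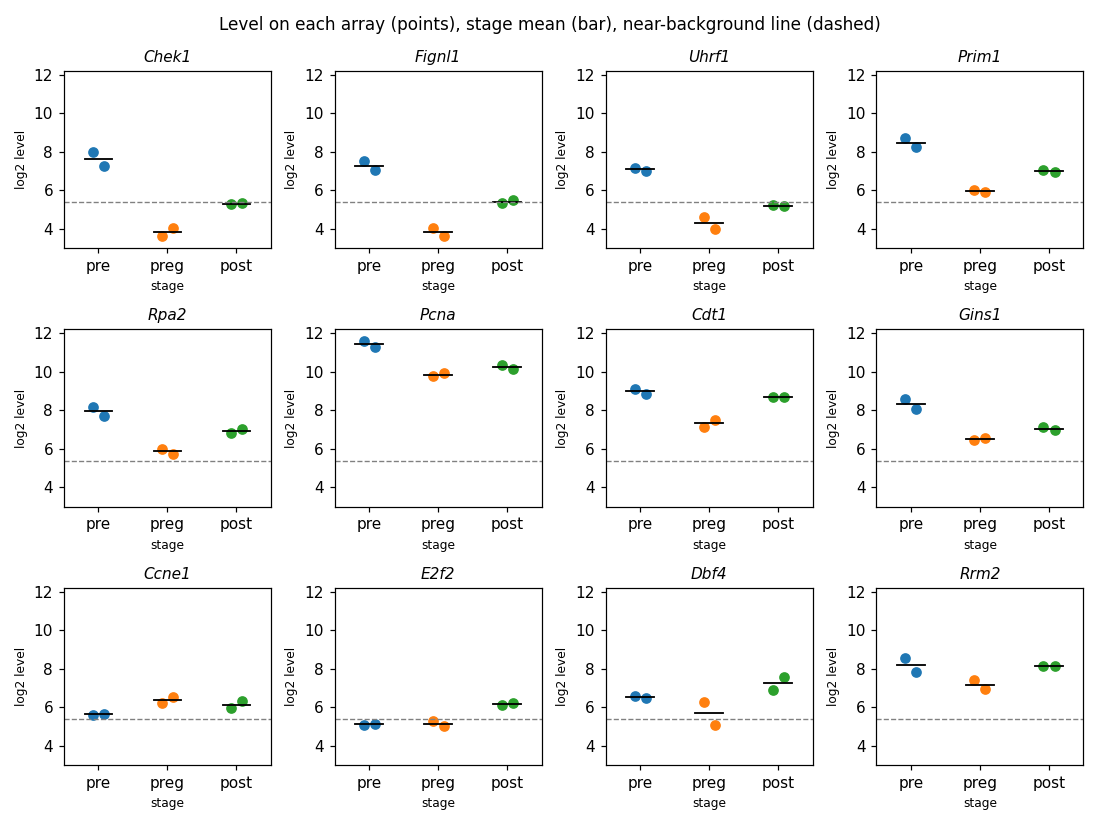
Log2 level of 12 replication genes on each array (points, 2 per stage), with the mean of the stage (black bar) and the line below which levels are called near background (dashed, 5.40). Chek1, Fignl1 and Uhrf1 drop below the line in pregnancy, Pcna and Cdt1 stay far above it, Ccne1 is highest in pregnancy and E2f2 is highest postpartum.

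Several results turn on the probe set. The 47 members have 105 probe sets, and 38 members have more than 1. Of the 70 probe sets that reached above background at 1 or more stages, 55 were called lower and 1 higher in pregnancy when every probe set was tested by itself. In the 22 members with at least 2 such probe sets, all of them were lower in pregnancy in 20, all higher in Ccne1 and split in Cdc45. The 6 members whose brightest probe set did not pass the test in pregnancy but had another that was called lower were Cdc45, Clspn, Exo1, Rfc1, Rfc2 and Usp1. After birth Fen1 alone had another that was called, and it was higher. Postpartum against pre-pregnancy, Brca1, Cdc45, Clspn, Exo1, Fen1, Rfc1 and Usp1 had another that was called lower. With each gene's probe sets averaged, near-background ones included, the pregnancy calls of Ccne1 (adjusted p = 0.0607), E2f1 (0.0552) and Pola2 (0.507) were lost. So were those after birth of Atad2, Cdc6, Chek1, Rpa2, Slbp and Uhrf1 (0.0525 to 0.131) and those postpartum against pre-pregnancy of Atad2, Cdc6, Dut, Rfc4 and Slbp (0.0520 to 0.222). Averaging also added calls, among them Fen1 after birth (0.0272), and Fen1 and Brca1 postpartum against pre-pregnancy (0.0413 and 0.0360). In pregnancy 38 members were then called, and 33 of these were also called on the brightest probe sets. The brightest probe sets of Ccne1, Fen1, Pold1 and Rrm2 carry a suffix by which Affymetrix marks probes shared with other sequences. Those of Chek1 and Gins2 carry another suffix, for probes shared by several transcripts. What shared sequences add to the levels of these genes was not tested.

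**Figure D4:**
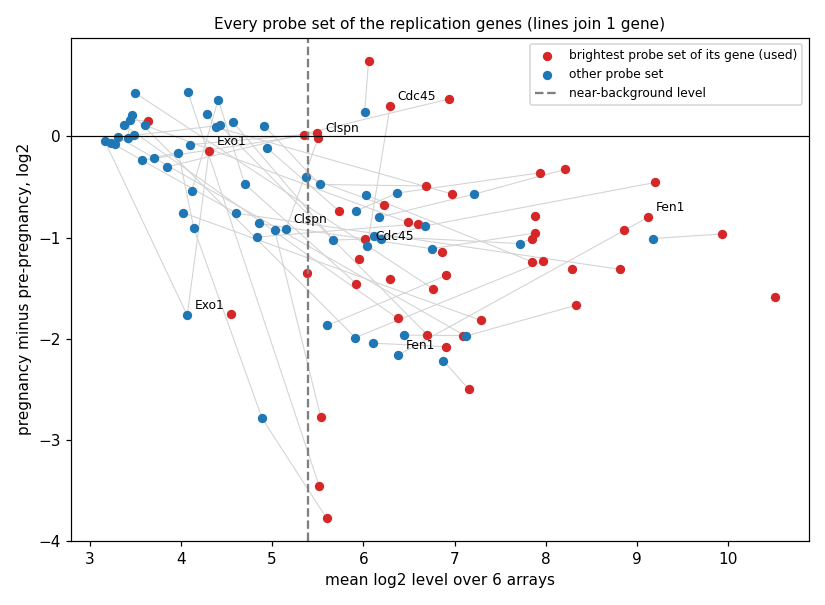
Mean log2 level over the 6 arrays (horizontal) against the log2 difference of pregnancy minus pre-pregnancy (vertical) for all 105 probe sets of the 47 members, with red for the brightest of each gene, blue for others, grey lines joining the probe sets of a gene and a dashed line at the near-background level of 5.40. Most probe sets right of the dashed line lie below 0, and the labelled pairs of Cdc45, Clspn, Exo1 and Fen1 differ in size or direction.

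Other replication genes outside the list mostly fell where they were called. Of 42 measured others, 21 fell in pregnancy and 1, the polymerase delta subunit Pold4, rose (0.57, adjusted p = 0.0311), with a median of -0.55. Over all genes 8.25% fell and 5.46% rose there, with a median of 0.045. Topbp1, which helps to start forks and activates the checkpoint, fell 4-fold, Timeless, the partner of Tipin, 3.72-fold, and the pocket protein Rbl1 2.96-fold. Dtl, which targets Cdt1 for destruction, fell to near background at 4.45 and 4.25. After birth 5 of the 42 rose, including Pold2 (2.13-fold), and 0 fell, where 2.41% of all genes rose and 0.879% fell. Postpartum, 10 were lower and 0 higher than before pregnancy, against 3.75% and 3.91% of all genes. All 6 Mcm helicase genes fell in pregnancy, with a median of -2.9525, and 5 rose after birth.

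Genes of mitosis and cytokinesis did not follow that order of stages. Of 19 measured, 0 were called in pregnancy against pre-pregnancy, with a median of 0.065, while 4 were lower at an unadjusted p under 0.05 in limma. Of the 19, 10 were near background before pregnancy, 9 in pregnancy and 4 postpartum. The median level of the list before pregnancy, 5.24 and 4.91, was itself near background. A fall from there could hardly show, and the median differences of this list are not measured sizes. Between pregnancy and postpartum, 2 (Ect2 and Mki67) rose and 0 fell, where 2.41% of all genes rose. The median there was 1.18 and all 19 differences were above 0, so that step was upward as for most members. Postpartum, 6 were higher than before pregnancy and 0 lower, where 3.91% of all genes were higher. The median of that comparison was 1.285 and all 19 differences were above 0. Mki67, the proliferation antigen, read 6.41 and 6.38 before pregnancy, 6.94 and 5.86 in pregnancy, then 8.15 and 8.65 postpartum. The summed linear level of the list differed widely within stages, at 1547 and 612 in pregnancy and 2045 and 4134 postpartum, against 1086 and 989 before pregnancy. In the members of the replication list, by contrast, 23 were lower and 1 higher postpartum than before pregnancy. The difference between the lists itself was not tested.

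**Figure D5:**
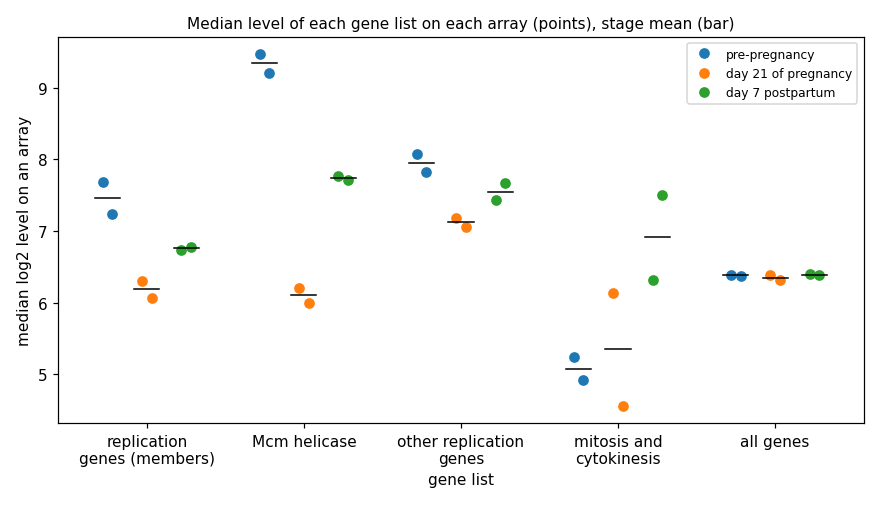
Median log2 level of each gene list (horizontal) on each array (points, 2 per stage, coloured by stage) with the mean of the stage (black bar), for the 47 replication genes, the 6 Mcm genes, 42 other replication genes, 19 mitosis and cytokinesis genes and all 18194 genes. The 3 replication lists are highest before pregnancy and lowest in pregnancy, the mitosis list is highest postpartum with wide gaps between replicates, and the median of all genes stays between 6.31 and 6.40.

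Some markers of other liver cells differed between stages too. Over all genes 8.25% fell and 5.46% rose in pregnancy, and 3.75% were lower and 3.91% higher postpartum than before pregnancy. Of 10 sinusoidal endothelial markers 3 (Emcn, Tek and Kdr) fell in pregnancy and 0 rose. Postpartum, 0 of the 10 were called against pre-pregnancy. At an unadjusted p under 0.05 in limma 8 of the 10 were lower in pregnancy and 7 postpartum than before pregnancy. In 9 and 8 of the 10 the arrays lay below both pre-pregnancy ones, as did 26% and 22.6% of all genes. The summed linear level of the 10 markers was 9044 and 6670 before pregnancy, 5640 and 5781 at day 21 and 5623 and 5296 postpartum. Replicate 1 was the higher pre-pregnancy array there, as it was for most replication genes. Of 12 Kupffer cell and macrophage markers 2 (Timd4 and Lyz2) fell in pregnancy, with sums of 10817 and 11337, then 10388 and 8388, then 10878 and 11591. After birth all 12 differed upward and 0 were called, where 2.41% of all genes rose. Postpartum against pre-pregnancy, limma called Marco higher (1.03, adjusted p = 0.0248) and Timd4 lower. Of 9 stellate cell markers 1 (Lrat) fell, with sums of 9055 and 8523, then 7767 and 7606, then 7605 and 6414. The shares called in pregnancy were 30% of the endothelial, 16.7% of the Kupffer cell and 11.1% of the stellate markers. The share of all genes was 13.7%, so the last 2 lists were near it. All defining markers of these 3 lists were above background at every stage except Emcn in pregnancy and postpartum and Col1a1 throughout. The part of these cells in the fall of the replication genes was not tested.

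Many blood cell and bile duct markers were low, and those called in pregnancy rose, as did 5.46% of all genes. Of 8 T and B cell markers 1 (Ighm) rose in pregnancy and 0 fell, with sums of 466 and 479 before pregnancy, 636 and 669 at day 21 and 605 and 648 postpartum, and Cd8a, Ms4a1 and Cd79a were near background throughout. Of 6 neutrophil markers 2 rose (S100a9 and the dim Mpo), with sums of 239 and 262, then 341 and 357, then 260 and 268, and Mpo, Elane, Camp and Ltf were near background throughout. Of 6 erythroid markers 0 were called in any comparison by limma (1, Ermap, at an unadjusted p under 0.05), with sums between 373 and 435, and Hba-a1, Epb42, Slc4a1 and Ermap were near background. Of 5 bile duct markers 0 were called by limma (up to 2 in a comparison at an unadjusted p under 0.05), Krt7, Sox9 and Cldn7 were near background throughout, and the sums were 137 to 154 before and in pregnancy and 290 and 159 postpartum. The 8 hepatocyte markers summed to between 141471 and 145171 on every array, with 1, Asgr1, called higher in pregnancy (0.395, adjusted p = 0.0492).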

How the data were processed

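Values are the log2 expression levels of 45101 probe sets that the authors deposited for 6 arrays, 2 per stage. Per the submitters' processing notes the levels come from RMA in Affymetrix Power Tools, and each array took 250 ng of RNA, per the labels' protocols. Neither version nor settings are stated in these sources, and the log2 base is inferred from the values (2.69 to 15.05). RMA normally includes quantile normalization, which gives arrays like distributions, and differences near background come out too small.

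From these values, 34958 probe sets with exactly 1 symbol in the platform annotation named 18194 genes, each by its brightest probe set (932 had several symbols and 9211 none or were controls). No symbol changed when updated through gene IDs (0). Limma 3.58.1 in R 4.3.3 fitted a mean per stage over all 6 arrays (3 residual and 4.80 prior degrees of freedom), and single probe sets were fitted in the same way. The fit was tested on simulated data. Over the 3 comparisons it recovered 5.82 to 7.31% of changes of 0.5 on the log2 scale. Of changes of 1 it recovered 82.7 to 83.9%, and of changes of 2, 99.1 to 99.5%. False calls made up 4.61 to 5.65% of calls. A gene not called is thus not shown to be unchanged, above all where its difference is near 0.5. The labels call replicates biological and say no more of the animals, so p-values measure the spread between these samples. The number of arrays limits the precision. Replicate numbers do not pair the samples by any label.

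The members, roles, comparison lists, marker lists and motifs were chosen with earlier results of these data known. Per-array values were given for members past the threshold, or 1 or more apart on the log2 scale, in any comparison, and of other lists up to 4 called genes. Members near the threshold or with diverging probe sets were singled out after their values were seen. Promoter windows are from RefSeq. The alternatives were the replicate block, a filter on dim genes (under the 40th percentile), repeated quantile normalization, median centring, a variance trend with robust priors, averaging a gene's probe sets, leaving out each array, fitting 2 groups and a threshold of 0.1. Leaving out an array leaves 1 in its stage, assumed to vary like the others.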

Additional observations from a re-analysis of the deposited data

How the results depend on the processing

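Each of the 3 counts of called members and 3 medians kept its direction under every alternative run. In pregnancy against pre-pregnancy the count of 36 became 20 to 37 with an array left out, and 33 to 39 otherwise. In postpartum against pregnancy the count of 13 became 3 to 12 with an array left out (3 without either postpartum array and 6 without pregnancy replicate 2) and 8 when a gene's probe sets were averaged, where 7 of the 13 were shared, while the others gave 10 to 18. In postpartum against pre-pregnancy the count of 24 became 3 to 25 with an array left out (3 without pre-pregnancy replicate 1, and 12 and 10 without postpartum replicates 1 and 2), and 21 to 25 otherwise. With a pre-pregnancy or postpartum array left out, fewer of all genes were called too, in each comparison. Over the arrays left out the medians of the members ranged from -1.19 to -0.985, from 0.425 to 0.545 and from -0.615 to -0.48. With the replicate number as a block (replicate block) the counts were 37, 13 and 23. It ended the calls of Cdc6 after birth (adjusted p = 0.0599) and against pre-pregnancy (0.0588) and added Rrm2 after birth (0.0383). Deviations of same-numbered arrays correlated across genes at 0.0285, 0.1107 and -0.0273. With 2 arrays per stage, whether same-numbered arrays were handled together could not be tested this way. Over all genes, repeated quantile normalization gave 292 higher and 175 lower calls after birth, against 439 and 160. For members near background the signal limits how large a difference can be measured.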
